A study of Mus musculus with 6 samples.

Results

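The retinoic acid genes described here are 9 genes that make, bind, sense or break down retinoic acid: Aldh1a1, Aldh1a2, Aldh1a3, Rdh10, Dhrs3, Crabp1, Crabp2, Rarb and Cyp26b1. Their array probes were found by gene symbol, and all but control spots were taken, which gave 15 probes among 41174 for 9 genes among 18295. Aldh1a3 and Dhrs3 had 2 probes each, Rdh10 and Rarb had 3 each, and the other 5 genes had 1.

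The samples were neurons carrying green fluorescent protein (GFP) from the Pitx3 locus, collected from mouse embryonic brain at E14.5 by fluorescence-activated sorting. Every sorted group carried a Pitx3(gfp) allele, so the comparison differs in the second allele. Pitx3(gfp/+) neurons, labelled Pitx3-GFP/wt and called heterozygous here, came as 3 pools, each of several embryos. Pitx3(gfp/-) neurons, labelled Pitx3-GFP/AK and called null here, came as 1 pool, which was hybridised on all 6 arrays against each heterozygous pool in both dye orientations. Pitx3 encodes a homeodomain protein that regulates transcription in midbrain dopaminergic neurons and in the lens.

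Between 47.6% and 71.4% of genes stood well above background, depending on the array and the RNA. Pitx3 itself, with 1 probe above background in both RNAs on all 6 hybridisations, gave log2 ratios of null over heterozygous of -0.12 and -0.78 with pool 1, 0.47 and -0.23 with pool 2, and 0.073 and 0.077 with pool 3, null RNA as Cy5 first. The values lay on both sides of 0 (-0.084 ± 0.32, SD, n = 3 pools; adjusted p = 0.811). Where the probe lies relative to the deleted part of the null allele is not known here, so the probe does not check the labels, and null is used throughout as the labels' name.

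Retinoic acid is made from vitamin A in successive oxidations. Retinol dehydrogenases such as Rdh10 turn retinol into retinaldehyde, reductases such as Dhrs3 turn it back, and the aldehyde dehydrogenases Aldh1a1, Aldh1a2 and Aldh1a3 oxidise it to retinoic acid. Inside cells the acid is carried by Crabp1 and Crabp2, switches genes on through nuclear receptors such as Rarb, and is degraded by cytochrome P450 enzymes such as Cyp26b1. In the midbrain, Aldh1a1 marks a subset of dopaminergic neurons and is a known target of Pitx3.

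Several of these genes are themselves controlled by retinoic acid, and the element through which Rarb responds is a textbook example. Upstream windows of 250 bases from RefSeq (GRCm38.p6) were available for 6 of the 9 genes, in 9 windows for Aldh1a1, Aldh1a2, Dhrs3, Crabp1, Rarb and Cyp26b1; Aldh1a3, Rdh10 and Crabp2 had none. They were searched on both strands for the receptor hexamer AGGTCA and for its variants, which were GGGTCA, the hexamer AGTTCA, and likewise GGTTCA, and for direct repeats of any pair of these hexamers spaced by 1, 2 or 5 bases. The 3 windows shown are those of the receptor whose element is known, of the dehydrogenase tied to Pitx3, and of the breakdown enzyme with the widest difference between the RNAs. Capitals mark the hexamers, and each sequence runs 5′ to 3′ toward the transcription start. The Rarb window is chr14:16575477-16575726 on the minus strand, the Aldh1a1 window chr19:20601718-20601967 on the plus strand, and the Cyp26b1 window chr6:84593811-84594060 on the minus strand.
Rarb: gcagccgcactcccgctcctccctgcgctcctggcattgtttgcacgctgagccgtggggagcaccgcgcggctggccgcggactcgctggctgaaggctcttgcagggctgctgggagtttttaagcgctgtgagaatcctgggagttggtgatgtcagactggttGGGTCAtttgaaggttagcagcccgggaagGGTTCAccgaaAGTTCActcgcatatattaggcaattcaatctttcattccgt
Aldh1a1: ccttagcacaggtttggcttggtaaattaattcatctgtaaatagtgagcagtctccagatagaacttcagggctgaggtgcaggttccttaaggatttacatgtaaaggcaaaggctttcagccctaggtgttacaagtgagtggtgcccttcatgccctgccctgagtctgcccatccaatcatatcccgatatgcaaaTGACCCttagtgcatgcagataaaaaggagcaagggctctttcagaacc
Cyp26b1: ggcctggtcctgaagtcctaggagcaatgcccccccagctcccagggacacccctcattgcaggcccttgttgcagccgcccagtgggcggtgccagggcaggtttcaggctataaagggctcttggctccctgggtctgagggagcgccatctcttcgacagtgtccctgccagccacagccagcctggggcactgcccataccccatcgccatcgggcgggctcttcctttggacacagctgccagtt

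The Rarb window held 3 hexamers, of which a pair formed the direct repeat GGTTCAccgaaAGTTCA, spaced by 5 bases and lying 53 to 37 bases before the start. A direct repeat spaced by 5 bases was present in 0.0883% of the 32851 RefSeq windows of the same length, and those spaced by 1 and by 2 bases in 0.164% and 0.174%. The Aldh1a1 window held 1 hexamer, on the opposite strand, and the window of its other start held none, as did the Cyp26b1 window. Hexamers were found in 38.6% of all windows, so 1 such match is common. These letters describe the windows only, and say nothing of the receptor's binding.

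Most of the 9 genes gave weak signals. A probe counted as well above background where its signal was over 2 background SDs higher than the median of the local background. A gene counted as above background if that was so for 3 or more arrays in the null or in the heterozygous RNA. By this measure 5 of the 9 genes were above background, namely Aldh1a1, Aldh1a2, Rdh10, Dhrs3 and Cyp26b1, and 4 were not, namely Aldh1a3, Crabp1, Crabp2 and Rarb. Of the 15 probes, 7 were above background and 4 were so on no array in either RNA. Across all genes, 12291 of 18295 were above background, and the 908 genes called in the comparison were all among them.

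Of the 9 retinoic acid genes, 0 passed the test between null and heterozygous RNA in limma's fit over all genes, at an adjusted p under 0.05, and their adjusted p-values ran from 0.0987 to 0.981. At an unadjusted p under 0.05 there were 3, Cyp26b1, Dhrs3 and Aldh1a1, against 20.5% of all genes. Over all 18295 genes, 4.96% were called, 3.09% as higher and 1.87% as lower in the null pool. The fit over all 41174 probes, which called 2.57% of them, called 0 of the 15 probes. The median log2 ratio of null over heterozygous was -0.015 for the 9 genes and -0.0027 for all genes, with pool medians of -0.032, -0.0037 and -0.0035 for the 9. All 6 arrays gave 1 sign for each of Cyp26b1, Dhrs3 and Aldh1a1, as for 20.2% of all genes. Among the 12291 genes above background, 7.39% were called and 27.5% had 1 sign on all 6 arrays. The 4 genes not above background enter this median with ratios that the background and the offset of 50 hold near 0. Signals shrink in the same way throughout this fit, so its ratios understate any difference of a dim probe. Ratios given for plain background subtraction carry no offset and are not shrunk in this way. The test rests on the variation of a gene's ratio over the 3 heterozygous pools, which limma moderates toward that of all genes. The null RNA was 1 pool, so variation among null embryos is not in the test.

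**Figure D1:**
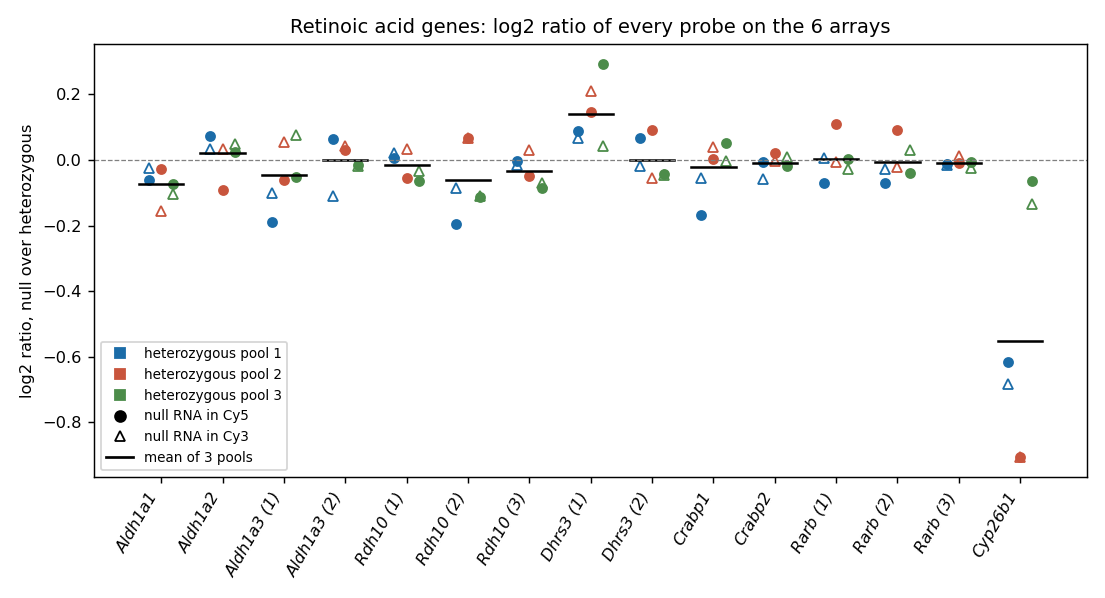
Log2 ratio of null over heterozygous (vertical axis) for each of the 15 probes (horizontal axis, numbered from the brightest where a gene has several), with colours for the heterozygous pool, symbols for the dye of the null RNA and bars for the mean of 3 pools. Cyp26b1 runs from -0.91 to -0.063, while every other probe lies between -0.20 and 0.29, and the probes of Aldh1a3, Crabp1, Crabp2 and Rarb are not above background.

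Cyp26b1, the enzyme that clears retinoic acid by oxidation, showed the widest difference of the 9 genes. Its normalised ratio was below 0 on all 6 arrays, and the size of the difference varied with the heterozygous pool. Its scanned signal minus local background in the null RNA was 118 and 85.3 on the arrays of pool 1, 123 and 82.3 on those of pool 2, and 109 and 66.9 on those of pool 3, the orientation with null RNA as Cy5 given first. In the heterozygous RNA of the same arrays it was 154 and 178 for pool 1, 239 and 282 for pool 2, and 114 and 66.9 for pool 3. Pools 1 and 2 thus exceeded the null RNA on each of their arrays, and pool 3 gave nearly the same signal as the null RNA on both of its own.

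As log2 ratios, the 2 arrays of pool 1 read -0.62 and -0.68, those of pool 2 -0.91 and -0.90, and those of pool 3 -0.063 and -0.14. The dye orientations gave close values within a pool, and the pools differed. The mean was -0.55 ± 0.41 (log2, SD, n = 3 pools; 95% interval -1.02 to -0.079; limma adjusted p = 0.190), or 1.47-fold higher in the heterozygous RNA, with 1.57-fold in pool 1, 1.87-fold in pool 2 and 1.07-fold in pool 3. The difference was lower than 0 in 3 of 3 pools and did not pass the test over all genes. Without replicate 2 the mean was -0.37, and without replicate 3 it was -0.78. With the 6 arrays in 1 model, a dye term and the pool as a random block, in place of 3 pool means, it passed (adjusted p = 0.0382). That model took 1 correlation between paired arrays for all genes (0.39). The paired arrays of Cyp26b1 were closer to each other than the pools were, so this p may be too small for it. Over all alternatives the adjusted p of Cyp26b1 ran from 0.0382 to 0.429.

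The normalised log2 level of Cyp26b1 placed the null pool lowest of the 4 RNA pools. Its level in the null pool was 7.19 ± 0.11 (SD over 6 arrays of 1 pool, range 7.10 to 7.38). The heterozygous pools stood at 7.34 for pool 3, 7.78 for pool 1 and 8.10 for pool 2. Pool 3, as the mean of 2 arrays (7.44 and 7.24), lay inside the range of the null arrays, and pools 1 and 2 lay above it. The spread of its ratio over the pools was wider than that of 99.3% of the 12291 genes above background, whose median SD was 0.0726, and its size exceeded that of 98.1% of them.

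**Figure D2:**
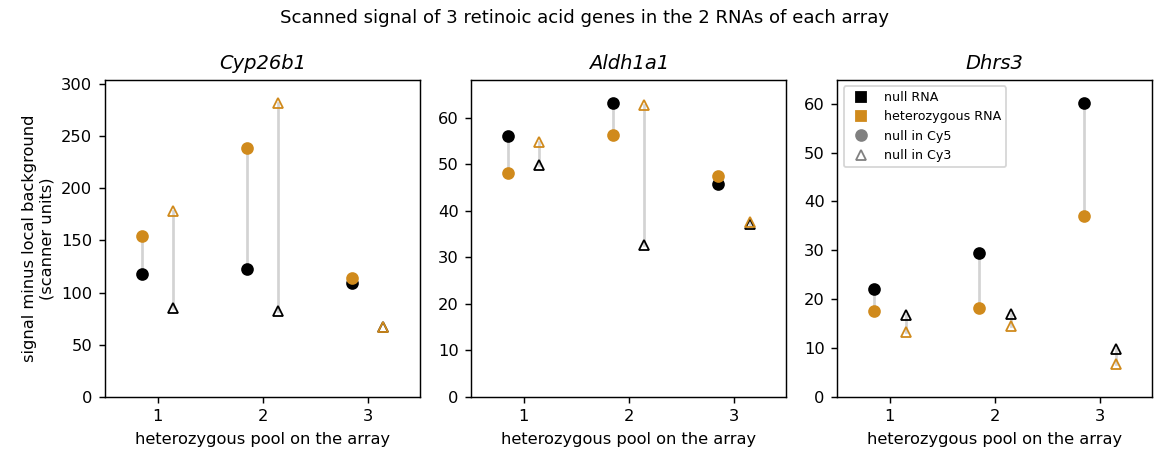
Scanned signal minus local background (vertical axis, scanner units from 0) in the null and heterozygous RNA of each array, by heterozygous pool (horizontal axis), for Cyp26b1, Aldh1a1 and the brightest Dhrs3 probe, with a grey line joining the 2 RNAs of an array. For Cyp26b1 the heterozygous RNA of pool 2 reaches 282 against 82.3 in the null RNA, and both RNAs stand at 66.9 on 1 array of pool 3.

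Summed levels of cell type markers, on the linear scale of the normalised levels, also differed between the pools, and a bulk sample cannot tell fewer cells of a type from less RNA per cell. For 10 endothelial markers, 7 of them above background, the sum was 1366 to 1478 in the null RNA over the 6 arrays and 1674, 1870 and 1543 in heterozygous pools 1, 2 and 3. For 13 dopaminergic markers, 10 of them above background, it was 1464 to 1754 in the null RNA and 1924, 1729 and 1559 in the heterozygous pools. Pitx3 itself is the brightest of these 13, so this sum leans on the gene that defines the comparison. Its log2 level in the heterozygous RNA was 8.96 and 9.57 for pool 1, 8.77 and 8.75 for pool 2, and 8.32 and 8.28 for pool 3. Endothelial sums, each heterozygous one a mean of 2 arrays, were thus higher in every heterozygous pool, and dopaminergic sums overlapped. The brightest markers weigh most in a sum, here Cd34, Kdr and Flt1 (mean log2 intensities 8.82, 8.00 and 7.60). Of the 10 endothelial log2 ratios of null over heterozygous, 7 lay below 0 and 3 above it. Those of Cldn5, Pecam1, Esam, Tek and Tie1 were between -0.024 and 0.035.

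For 10 markers of radial glia and floor plate, 7 of them above background, the sum was 5352 to 5794 in the null RNA and 4992, 5270 and 4412 in the heterozygous pools. For 5 blood markers, 4 of them above background, it was 661 to 749 against 623, 655 and 585. Both of these sums were higher in the null RNA than in every heterozygous pool. Their brightest markers were Fabp7 (log2 ratio 0.38) and Vim (0.14) for radial glia, and Hba-a1 (0.17) for blood. Of the 10 radial glia and floor plate ratios, 7 lay above 0 and 3 below it, among these Slc1a3 (-0.23) and Wnt5a (-0.35). Of the 5 blood ratios, 4 lay above 0 and 1 below it. For 6 microglial markers, 5 of them above background, the sum was 437 to 451 against 435, 444 and 428. For 5 hindbrain and red nucleus markers, 3 of them above background, it was 936 to 984 against 729, 807 and 1183. The order of the heterozygous pools for Cyp26b1, pool 2 highest and pool 3 lowest, was that of 4 of the 7 marker lists, namely endothelium, radial glia, blood and microglia. The microglial markers were dim (mean log2 intensities 5.85 for Tyrobp to 6.54 for Csf1r). Every level includes the offset of 50, so the order of their close sums carries little weight. The blood sum leans on Hba-a1 (mean log2 intensity 8.41). All lists were read from the same 3 pools, so these orders are not separate results, and their match was not tested. The radial glia and blood sums were higher in the null RNA, where Cyp26b1 was lower.

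Against 1.87% of all genes called as lower in the null pool, 2 of the 10 endothelial markers fell (Cd34 at -0.41 and Sox17 at -0.37, log2). So did 1 of the 13 dopaminergic markers (Slc6a3, the dopamine transporter, at -0.42). Other markers rose, against 3.09% of all genes called as higher. They were Pou4f1, 1 of 5 for hindbrain and red nucleus, at 0.44, Hbb-y, 1 of 5 for blood, at 0.37, and Postn, 1 of 12 for meninges and mesenchyme, at 0.24. The remaining markers did not pass. Th, En1, Pecam1, Tie1, Tlx3, Shh and Tyrobp were above background on no array. The part of these cell types in the Cyp26b1 result was not tested.

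The other breakdown enzymes did not pass the test. Cyp26c1 was above background in both RNAs on all 6 arrays and read 0.16, 0.048 and 0.088 in the 3 pools, a mean of 0.099 ± 0.057 (log2, SD, n = 3; adjusted p = 0.203). Its pools all lay on the other side of 0 from those of Cyp26b1. Cyp26a1 was well above background on 0 of 6 arrays in the null RNA and on 1 in the heterozygous RNA.

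Aldh1a1, the retinaldehyde dehydrogenase of the dopaminergic subset, was above background in both RNAs on all 6 arrays but dim, with a mean signal of 90.2 over a background of 42.7 in the null RNA and 92.3 over 41.2 in the heterozygous RNA. Its log2 ratios were -0.060 and -0.025 for pool 1, -0.028 and -0.16 for pool 2, and -0.072 and -0.10 for pool 3, null RNA as Cy5 first. All 6 lay below 0 and all were small. The mean of -0.074 ± 0.027 (log2, SD, n = 3 pools; 95% interval -0.14 to -0.0071; adjusted p = 0.207) corresponds to a signal 1.05-fold higher in the heterozygous RNA. It kept its sign in all 14 alternatives, from -0.15 with plain background subtraction to -0.053, and passed in 0 of them.

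On the level scale the order of the Aldh1a1 values was null, then pools 1 and 2, then pool 3. The null pool stood at 6.62 ± 0.043 (SD over 6 arrays, range 6.55 to 6.67), against 6.68, 6.68 and 6.72 in the 3 heterozygous pools. These heterozygous values are means of 2 arrays, and they lay above the null range by a margin smaller than that range (pool 2 at 6.6755 against a null maximum of 6.6748). As single arrays, 1 of pool 1 (6.666) and 1 of pool 2 (6.643) lay inside the null range. Before normalization the null RNA had the higher signal minus background on 2 of the 6 arrays (pools 1 and 2 with null RNA as Cy5). The near-identical paralog Aldh1a7 was well above background on 1 of 6 arrays in either RNA; whether the Aldh1a1 probe also binds its transcript is not known here.

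Aldh1a2, which makes retinoic acid in mesenchyme and meninges, was above background throughout. Its pools read 0.053, -0.030 and 0.038, on both sides of 0, and the mean was 0.020 ± 0.044 (log2, SD, n = 3; 95% interval -0.058 to 0.098; adjusted p = 0.783). Of 12 markers of meninges and mesenchyme, 8 were above background, with a summed level of 983 to 1030 in the null RNA and of 944, 1009 and 1008 in the heterozygous pools; Lum and Ogn were above background on no array. Aldh1a3, the third retinaldehyde dehydrogenase, was well above background on 0 of 6 arrays in the null RNA and on 2 in the heterozygous RNA with its brighter probe, and on none with the other. The brighter probe's mean signals were 49.4 and 51.4 over backgrounds of 41.2 and 40.8 in the null and heterozygous RNA, too near background for a difference to be detectable.

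Rdh10, the dehydrogenase that begins retinoic acid synthesis in embryos, did not differ beyond the spread of the pools with any of its 3 probes. Its brightest probe, above background on all arrays, read 0.014, -0.010 and -0.049 in the 3 pools, with a mean of -0.015 ± 0.032 (log2, SD, n = 3; 95% interval -0.085 to 0.054; adjusted p = 0.826). The next probe read -0.14, 0.067 and -0.11, and was above background on 2 arrays in the null and 4 in the heterozygous RNA. The last probe was above background on none.

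Dhrs3, which returns retinaldehyde to retinol and is induced by retinoic acid, gave different results with its 2 probes. The brighter probe read 0.089 and 0.068 for pool 1, 0.14 and 0.21 for pool 2, and 0.29 and 0.044 for pool 3, null RNA as Cy5 first. All 6 values lay above 0. The mean was 0.14 ± 0.055 (log2, SD, n = 3; 95% interval 0.055 to 0.23), 1.10-fold higher in the null RNA, with an adjusted p of 0.0987, the lowest of the 9 genes. The probe was above background on 5 arrays in the null and 3 in the heterozygous RNA. With the authors' deposited ratios, pool 1 read -0.016 and 0.018, so the 6 arrays did not share 1 sign. The limma adjusted p from those ratios was 0.272.

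The other Dhrs3 probe read 0.024, 0.018 and -0.045 in the 3 pools, a mean of -0.00086 ± 0.038 (adjusted p = 0.993 over all probes). Both probes were dim, at 70.4 and 62.7 over backgrounds of 44.5 and 43.2 in the null RNA. In the pool 3 hybridisation that had null RNA as Cy5, the brighter probe had a normalised level of 6.81 in the null and 6.52 in the heterozygous RNA, against 6.03 to 6.22 and 5.98 to 6.10 elsewhere, while the other probe stood there at 6.01 and 6.05. The mean over both probes was 0.070 (adjusted p = 0.148). A variance model with an intensity trend and robust estimation, run together, took the brighter probe past the threshold (adjusted p = 0.0442); over all alternatives its adjusted p ran from 0.0442 to 0.329.

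The binding proteins and the receptor were at or near background. Crabp1 was well above background on 0 of 6 arrays in the null RNA and on 1 in the heterozygous RNA, with mean signals of 50.5 and 51.3 over backgrounds of 41.9 and 41.2. Crabp2 was above background on none, with 45.2 and 44.8 over 42.4 and 40.8. For Rarb, the brightest of 3 probes was above background on 1 array in the null RNA, with mean signals of 51.7 and 50.9 over 43.3 and 42.4, another on 1 array in the heterozygous RNA, and the last on none. The ratios of these 3 genes, plotted with the others, come from signals near background, at which a difference in their levels was not detectable.

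**Figure D3:**
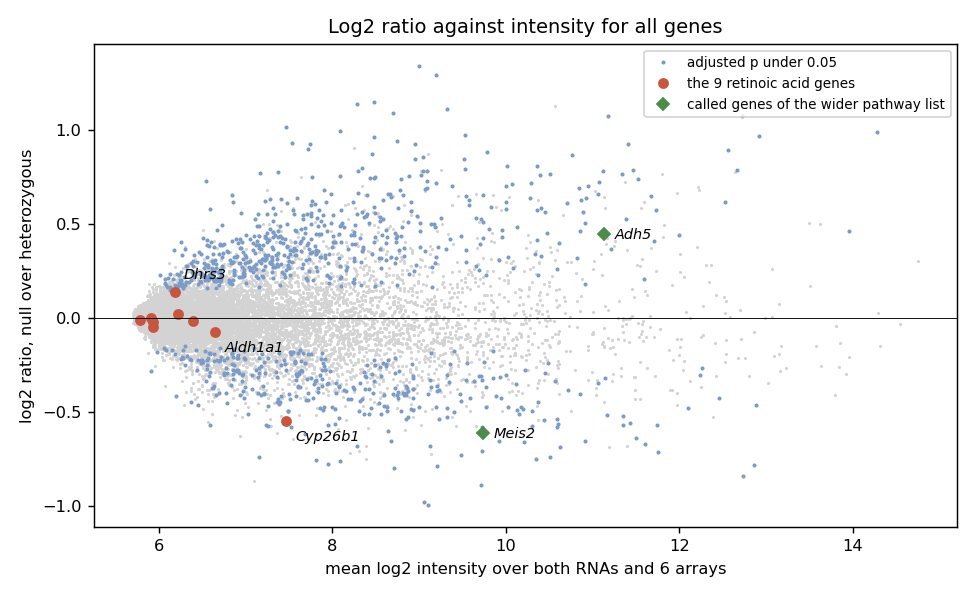
Log2 ratio of null over heterozygous (vertical axis, mean of 3 pools) against mean log2 intensity (horizontal axis) for 18295 genes in grey, with the 908 called genes in blue, the 9 retinoic acid genes in red and called genes of the wider pathway list in green. The 4 genes not above background sit at the dim end, where ratios are narrow, and Cyp26b1 lies at -0.55 among called genes without being called.

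The wider retinoid pathway was read from 51 further measured genes, of which 29 were above background. Of the 51, 1 rose, 1 fell and 49 did not pass, against 4.96% of all genes called, and their median log2 ratio was -0.0049. The call upward was Adh5, a class III alcohol dehydrogenase known above all for clearing formaldehyde, at 0.45, 0.39 and 0.50 in the 3 pools (0.45 ± 0.056, log2, SD, n = 3; adjusted p = 0.0261). The call downward was Meis2, a homeodomain cofactor gene that retinoic acid induces in embryonal carcinoma cells and limb buds. Its brightest probe read -0.60, -0.70 and -0.54 (-0.61 ± 0.082; adjusted p = 0.0261). Adh5 and Meis2 were above background in each RNA on every array, and their pools lay well away from 0.

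Meis2 had 2 further probes, and these too were above background throughout. They read -0.44, -0.70 and -0.27, and 0.036, -0.39 and -0.36, with means of -0.47 ± 0.21 and -0.24 ± 0.24 and adjusted p-values of 0.0931 and 0.365 over all probes. Both means were negative, like that of the brightest probe, but did not pass. Both calls were lost in limma when any 1 pool was left out, where 0 of the 18295 genes pass.

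By role, the 22 measured genes of retinol uptake, storage and oxidation, 10 of them above background, held 1 rise (Adh5) and 0 falls. The 12 genes known to be induced by retinoic acid, only 5 of them above background, held 0 rises and 1 fall (Meis2). The 7 coregulators, 6 receptors and binding proteins, 2 breakdown enzymes and 2 genes of retinaldehyde oxidation held 0 calls in limma. At an unadjusted p under 0.05 there were 4 genes of uptake, storage and oxidation, 2 coregulators, 1 breakdown enzyme, 1 induced gene and 0 in the other roles. These were 8 of the 51 measured genes, a share no higher than the 20.5% of all genes at this threshold. The coregulators ran from -0.27 to 0.019. Among the receptors, Rxra, the partner through which retinoic acid receptors bind DNA, read 0.11, -0.31 and -0.22 (-0.14 ± 0.22; adjusted p = 0.534). Rarg read 0.024 ± 0.040, Rxrb 0.0030 ± 0.012, Rxrg -0.020 ± 0.082 and the lipid carrier Fabp5 -0.049 ± 0.11, all above background. Rara was above background on no array.

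**Figure D4:**
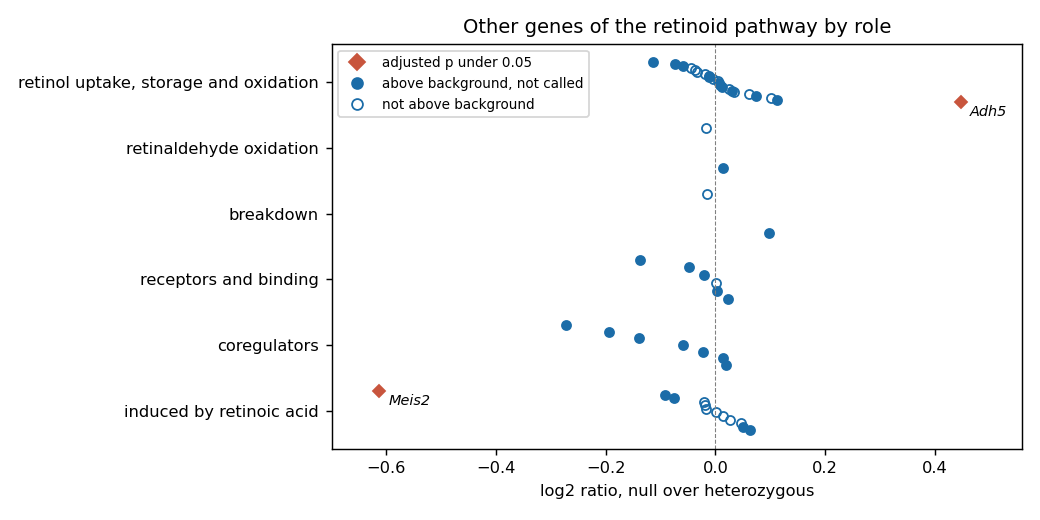
Log2 ratio of null over heterozygous (horizontal axis) for the 51 measured genes of the wider retinoid pathway, grouped by role (vertical axis), with open circles for genes not above background. Adh5 at 0.45 and Meis2 at -0.61 are the 2 called genes and lie apart from the others, which run from -0.27 to 0.11.

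The genes whose 6 array ratios lay nearest to those of Aldh1a1, among 12286 others above background, were Cp (ceruloplasmin), the vomeronasal receptor Vmn1r80 and the cytokine Tnfsf13b, at Euclidean distances of 0.052, 0.060 and 0.073. These distances are small because the ratios themselves are near 0. For Cyp26b1 the nearest were the channel-associated factor Tcaf1 and the transcription factors Foxj3 and Irx3, at distances of 0.34, 0.37 and 0.38, with mean log2 ratios of -0.61, -0.52 and -0.58 and adjusted p-values of 0.0903, 0.0895 and 0.0886. All 6 arrays share the null pool, and the arrays of a pool share both RNAs, so this likeness is a description of these libraries.

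**Figure D5:**
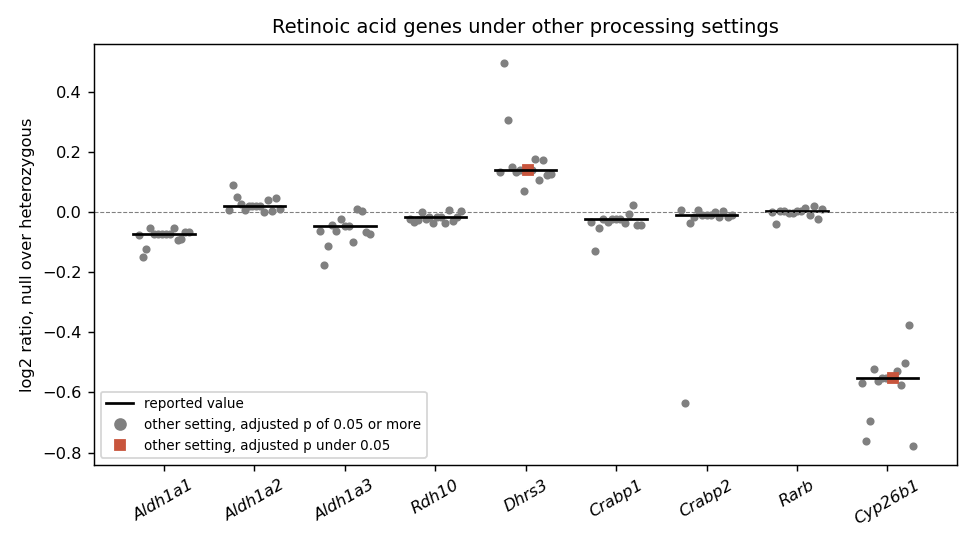
Log2 ratio of null over heterozygous (vertical axis) of the 9 retinoic acid genes (horizontal axis) as reported (black bars) and under up to 14 other processing settings (points, red squares where the adjusted p is under 0.05). Cyp26b1 stays between -0.78 and -0.37 and Dhrs3 between 0.070 and 0.49, each with 1 setting past the threshold, and the Crabp2 value of -0.63, from plain background subtraction, belongs to a probe above background on no array.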

How the data were processed

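Gene expression was measured on 6 2-colour arrays, with RNA amplified in 2 rounds per the labels' protocols. Per the file headers, the deposited scanner tables hold the spot intensity and the local background intensity of both channels. The authors' deposited series table holds log2 ratios of Cy5 over Cy3, equal at every spot to those of their normalized intensities; in the sources used here, how they normalized is not given. Its column medians ran from -0.00058 to 0.0023, so the columns are centred near 0, with scale and direction settled by that match.

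Background was corrected with normexp (offset 50), loess was run within arrays (control spots weighted 0), and ratios were turned to null over heterozygous. Averaging each dye-swapped pair left n = 3. Levels per RNA came from the 2 channels after Aquantile scaling. A gene was represented by its brightest probe. Ratios were tested against 0 by limma 3.58.1 (R 4.3.3), and p-values were adjusted by Benjamini-Hochberg over all 18295 genes, or all 41174 probes. The fit was tested on simulated data. The simulated ratios were drawn independently for each pool, so they did not cover the sharing of 1 null pool. The number of pools, 3 heterozygous and 1 null, limits the precision. Of 41174 probes, 34186 had 1 platform symbol, 0 several and 6988 none; 3726 were updated through older names in RefSeq's GRCm38.p6 table, which named 30365 as given, and 95 kept their name.

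The genes and lists were chosen with earlier results of these data known. Named besides the 9 genes were called genes of the pathway list, the other receptors, binding proteins and breakdown enzymes, Aldh1a7, and the 3 genes nearest to Aldh1a1 and to the largest difference. Probe sequences, and so probe positions in the genes, were not used here. Alternatives covered background, normalization, the authors' values, dim genes, probes, variance, pairing, dyes and pools.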

Additional observations from a re-analysis of the deposited data

Results flagged for a closer look

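Of the 15 probes tested over the 6 arrays, 1 had a value standing apart from the remaining 5 by Dixon's test, which happens by chance for about 1 probe in 20. For Aldh1a2 the pool 2 hybridisation with null RNA as Cy5 gave -0.093, and the remaining 5 gave 0.025 to 0.072.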

How the results depend on the processing

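The count of 908 genes over all genes was 0 with plain background subtraction (3305 at an unadjusted p under 0.05) and with median centring (2604), 1621 with an offset of 10, 2221 with the pool as replicate block, and 0 to 0 when leaving out each pool. The count of 0 among the 9 genes became 1 with the trended robust variance (Dhrs3) and 1 with the replicate block (Cyp26b1), and was 0 in the other 12 settings; with an offset of 10, Cyp26b1 and Dhrs3 both had an adjusted p just above the threshold (0.0501 and 0.0504). The median of -0.015 was -0.13 with plain subtraction, -0.036 with an offset of 10, -0.037 where null RNA was Cy5, and -0.022 to 0.0038 when leaving out each pool, changing sign without replicate 1. The 2 calls of the pathway list became 0 with plain subtraction and with median centring, 5 with the trended robust variance, 1 in each dye orientation, and 0 to 0 when leaving out each pool. The cause was not tested, other than that leaving out a pool leaves 2. Each ratio compares the 2 RNAs of an array. Separate null pools could not be paired with the heterozygous pools because the null RNA was 1 pool. Cyp26b1, Aldh1a1, Aldh1a2 and Dhrs3 kept their sign in all 14 settings. Low signal over background limits Aldh1a3, Crabp1, Crabp2 and Rarb.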
